A study of Mus musculus with 6 samples.

Results

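The genes of endoplasmic reticulum (ER) protein folding and the unfolded protein response form a set of 38, picked by gene symbol, and all 38 were found among the 25339 genes of a mouse colon expression table. Levels are in FPKM, counts of fragments scaled by gene length and by library depth, so levels of different genes are compared per length. Messenger RNA was sequenced from colon of mice given lenvatinib (3 libraries) and of mice given the solvent DMSO (3 libraries). Lenvatinib is an oral inhibitor of receptor tyrosine kinases, among them the receptors for VEGF, FGF and PDGF, KIT and RET. The labels number the libraries of each group as biological replicates and name colon as the only tissue. The sources used here do not give strain, genotype, sex, age, dose, duration or whether colitis was induced.

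Secreted and membrane proteins enter the ER through the Sec61 channel, are folded there by chaperones and disulfide isomerases, and are sent to the proteasome by ER-associated degradation (ERAD) when folding fails. Unfolded protein in the ER activates the sensors ATF6, IRE1 and PERK. ATF6 and XBP1, the factor made after IRE1 splices its messenger RNA, switch on chaperone and ERAD genes, while PERK slows translation and favours ATF4, which drives amino acid synthesis genes and the factor CHOP. In the colon the load is heaviest in mucus-making goblet cells and in antibody-secreting plasma cells.

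The recovered depth was 37946236 to 38721466 reads in genes for the lenvatinib libraries and 37660528 to 39287783 for the DMSO libraries. The libraries were not equally distinct. Over genes with reads, the median squared difference over that of counting noise was 2.37 between lenvatinib 2 and 3 and 2.61 between DMSO 2 and 3, against 10.2 to 24.2 for the other pairs. The labels do not tie libraries to animals, so a p-value reflects only how far these libraries spread, which within those pairs may be technical. DMSO 1 was the only library with Ddx3y, a Y-linked gene, above 0 (6.54 FPKM). The labelled tissue was checked with marker genes. The summed level of 9 colonocyte markers was 11803 to 16496 FPKM in lenvatinib libraries and 12720.3 to 13938 FPKM in DMSO libraries, while Fabp6, a gene of the ileum, measured 148 to 161 FPKM with lenvatinib and 1.44 to 2.28 FPKM with DMSO.

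No member of the set passed the test, yet most chaperone genes had lower levels in lenvatinib libraries 2 and 3. Of the 38 members, 36 had a mean of at least 1 FPKM and were tested on log2(FPKM + 1) with limma, a linear model with a variance shared across genes. At a Benjamini-Hochberg adjusted p below 0.05, 0 of 36 members were called, against 2.03% of the 11774 genes tested (1.10% called higher and 0.934% lower), and voom on the recovered reads also called 0 members. An unadjusted p below 0.05 was found for 17 members (47.2%), against 22.0% of all genes. The log2 fold change, lenvatinib minus DMSO, was negative for 30 of 36 members (83.3%), against 63.9% of all genes. The median over members was −0.19, against −0.07 over all genes tested. Fold changes on this scale understate those of low genes.

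The groups did not overlap, with every lenvatinib library below every DMSO library, for 12 members (33.3%), against 17.5% of all genes. The reverse, every lenvatinib library above every DMSO library, held for P4hb and Herpud1, against 10.0% of all genes. In both directions together 14 members (38.9%) had groups without overlap, against 27.5% of all genes. Lenvatinib 2 and 3 lay below every DMSO library for 29 of 36 members (80.6%), against 46.6% of all genes, and above every DMSO library for P4hb and Herpud1, against 19.7%. Lenvatinib 1 lay within the DMSO range for 19 members (52.8%), against 38.3% of all genes. For 14 of these 29, lenvatinib 1 lay within the DMSO range, a pattern seen in 17.5% of all genes. Lenvatinib 2 or 3, a near-identical pair, was the lowest library for 29 of 36 members (80.6%), against 52.2% of all genes. Without DMSO 1, 0 members were called, 16 lay lower without overlap (31.0% of all genes) and 27 had negative fold changes (63.5% of all genes).

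**Figure D1:**
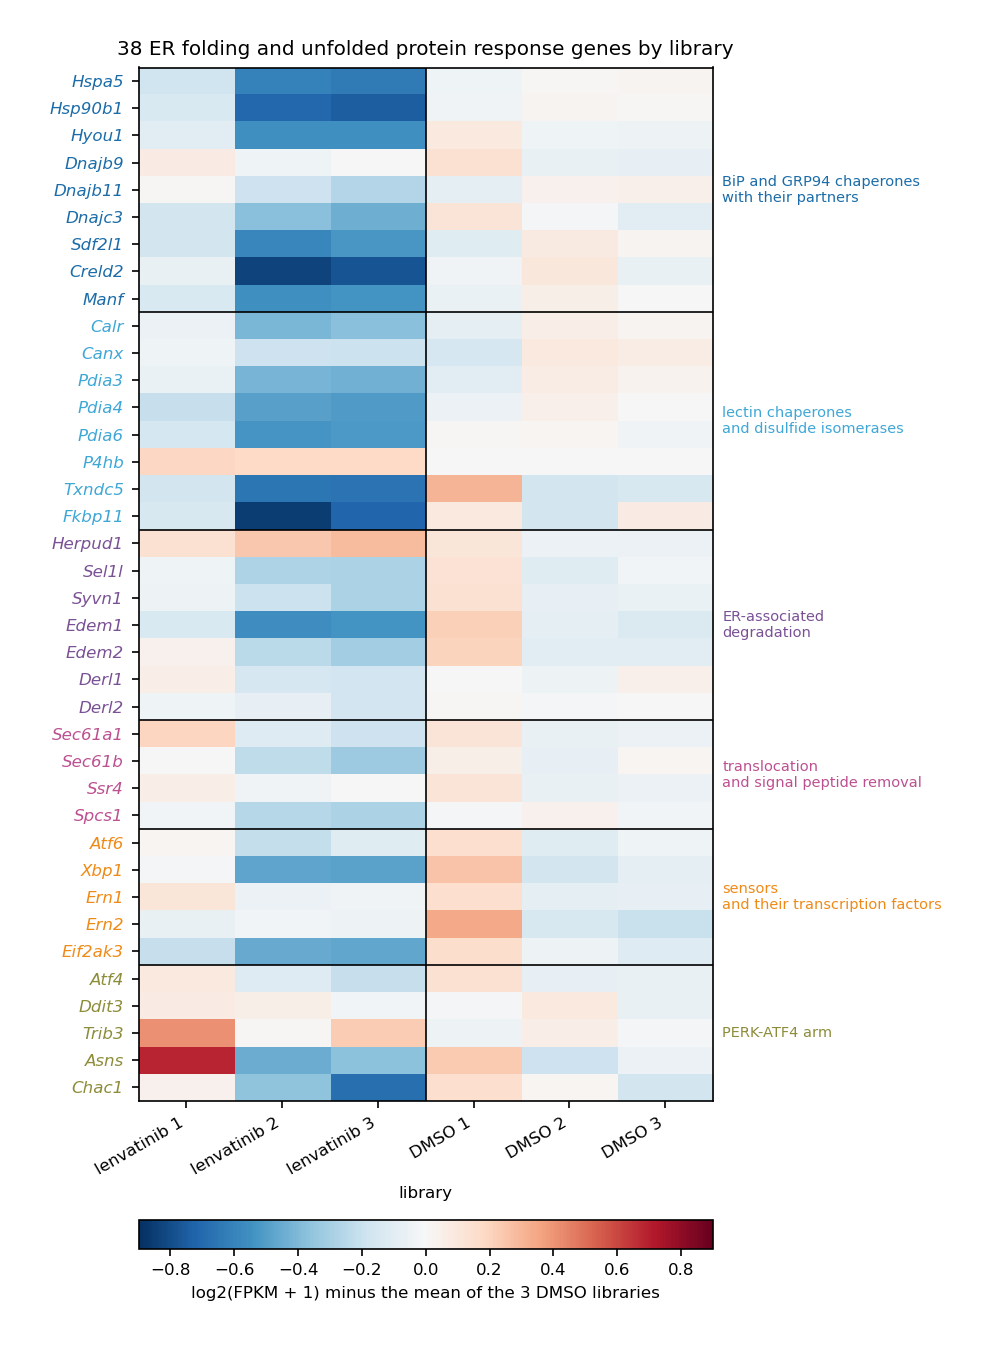
Levels of the 38 genes in each library (columns) as log2(FPKM + 1) minus the mean of the 3 DMSO libraries, with blue for lower and red for higher levels, ordered by role. The chaperone rows are darkest in lenvatinib 2 and 3 and pale in lenvatinib 1, P4hb and Herpud1 are red in all 3 lenvatinib libraries, and DMSO 1 is highest for 18 of the 36 genes tested.

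The group around BiP and GRP94 showed this most evenly. Hspa5, which encodes BiP, the ER member of the Hsp70 family, measured 242, 179 and 176 FPKM in lenvatinib 1 to 3 and 266, 276 and 278 FPKM in DMSO 1 to 3. All 3 lenvatinib libraries were below all DMSO libraries, and lenvatinib 1 was nearest to them. The log2 fold change was −0.47 (SE 0.129, limma adjusted p = 0.124). Hsp90b1, for GRP94, the ER member of the Hsp90 family, measured 235, 158 and 155 FPKM in lenvatinib 1 to 3 and 253, 263 and 260 FPKM in DMSO 1 to 3. The groups did not overlap either, with a log2 fold change of −0.53 (SE 0.164, limma adjusted p = 0.155).

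Partners of BiP had similar values. Manf, a small ER protein that holds BiP on its clients, measured 197, 147 and 148 FPKM in lenvatinib 1 to 3 and 207, 224 and 216 FPKM in DMSO 1 to 3. Sdf2l1, which works with BiP and its co-chaperones, measured 50.8, 37.8 and 39.6 FPKM with lenvatinib and 53.0, 60.6 and 58.2 FPKM with DMSO. Creld2, an ER stress gene with a disulfide isomerase-like protein, measured 46.0, 26.6 and 27.7 FPKM with lenvatinib and 47.2, 51.8 and 46.0 FPKM with DMSO. For Creld2 the groups overlapped, since lenvatinib 1 was level with DMSO 3, while lenvatinib 2 and 3 were at 55.1% and 57.4% of the DMSO mean.

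Hyou1, the large Hsp70-like exchange factor of BiP, averaged 30.4 ± 6.06 FPKM with lenvatinib and 40.0 ± 2.25 FPKM with DMSO (SD, n = 3 each). Dnajc3, a J-domain co-chaperone, averaged 22.5 ± 2.34 and 28.5 ± 2.21 FPKM in lenvatinib and DMSO libraries, again without overlap. The other J-domain proteins differed less. Dnajb11 averaged 52.4 ± 5.34 FPKM with lenvatinib and 58.0 ± 2.90 FPKM with DMSO, and Dnajb9 26.4 ± 1.08 and 26.3 ± 2.27 FPKM in the same order. Over the 9 genes of the group, 0 passed, against 2.03% of all genes, and the median log2 fold change was −0.41. Of the 9, 6 were lower without overlap (66.7%, against 17.5% of all genes).

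**Figure D2:**
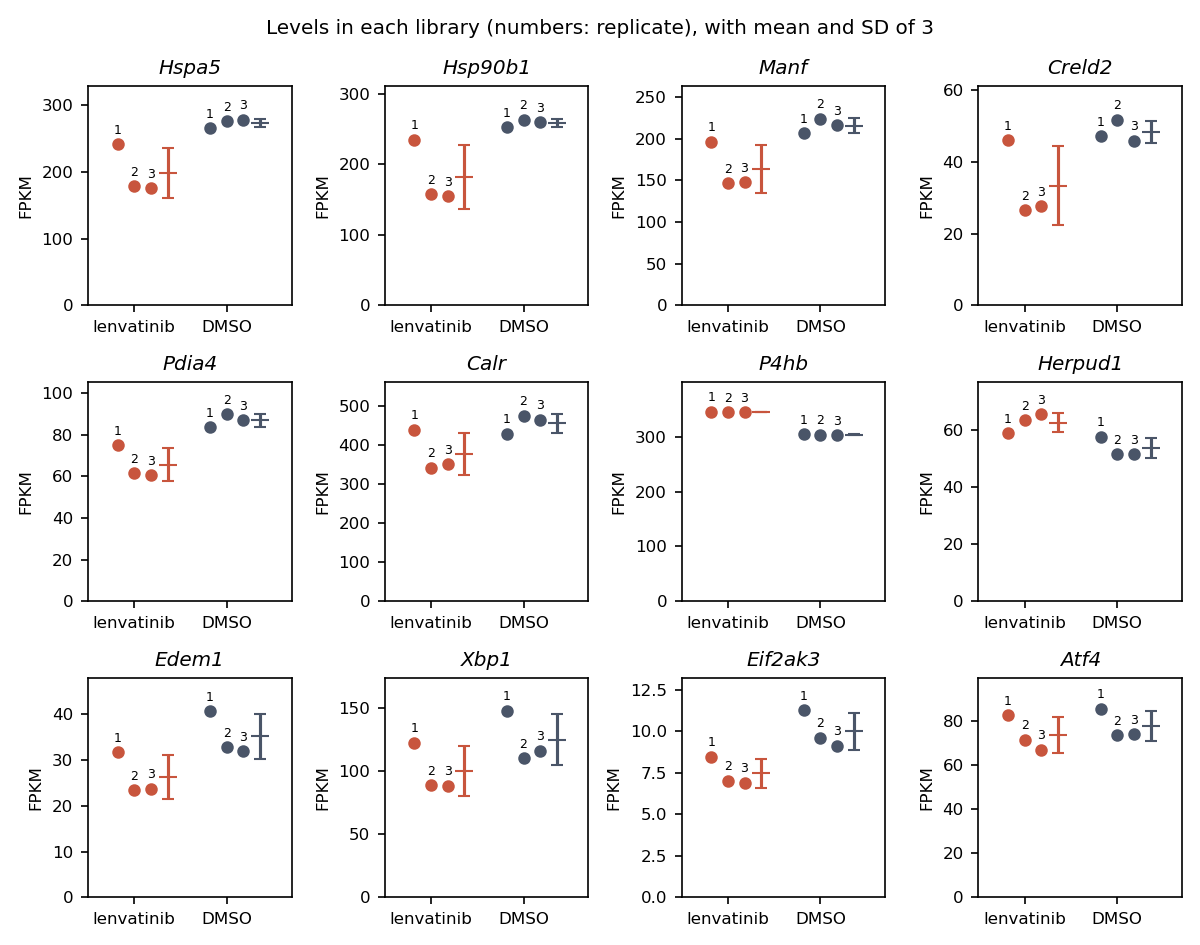
FPKM of 12 members in each library (points, numbered by replicate) for lenvatinib (red, left) and DMSO (grey, right), with the mean and SD of 3 libraries beside the points. Hspa5, Hsp90b1, Manf and Pdia4 show no overlap with lenvatinib 1 nearest to DMSO, P4hb lies near 345 FPKM in all lenvatinib libraries and near 304 FPKM in all DMSO libraries, and Xbp1 and Edem1 are highest in DMSO 1.

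The lectin chaperones and disulfide isomerases had the highest summed level of the 6 groups, though single genes ranged widely. Calr, for the calcium-binding lectin chaperone calreticulin, had the highest level of the set, 439, 341 and 351 FPKM in lenvatinib 1 to 3 and 429, 475 and 464 FPKM in DMSO 1 to 3. Its membrane-bound relative Canx averaged 103 ± 6.46 FPKM with lenvatinib and 114 ± 10.0 FPKM with DMSO, and their partner Pdia3 211 ± 32.4 and 259 ± 15.9 FPKM in the same order. For these 3 genes lenvatinib 1 lay inside the DMSO range. Among the isomerases, the groups did not overlap for Pdia4, at 74.8, 61.4 and 60.5 FPKM with lenvatinib and 83.6, 89.7 and 87.0 FPKM with DMSO, and Pdia6, at 88.4, 68.0 and 68.6 FPKM with lenvatinib and 99.3, 99.8 and 96.6 FPKM with DMSO. Pdia4 had the lowest adjusted p of the set (log2 fold change −0.40, SE 0.0943, limma adjusted p = 0.0986).

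P4hb lay on the other side of DMSO from its relatives. It encodes protein disulfide isomerase itself, which is also the β subunit of the enzyme that hydroxylates prolines of collagen. It measured 345.2, 344.0 and 344.6 FPKM in lenvatinib 1 to 3 and 304.8, 303.8 and 302.3 FPKM in DMSO 1 to 3. Both groups were tight, the lenvatinib mean was 113% of the DMSO mean, and the log2 fold change was 0.18 (SE 0.0494, limma adjusted p = 0.124). Without lenvatinib 1 it was among the 23 of 36 members called, of which 2 were higher. In that version 4479 of the 11774 genes tested were called, and 9.85% of all genes were called higher.

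Txndc5, a thioredoxin-domain isomerase, and Fkbp11, a proline isomerase, are both prominent in plasma cells. Txndc5 measured 89.8, 63.8 and 63.0 FPKM with lenvatinib and 124, 89.8 and 91.1 FPKM with DMSO, with DMSO 1 above the rest. Fkbp11 had the most negative fold change of the set (−0.57, SE 0.194, limma adjusted p = 0.177), at 4.17, 2.16 and 2.48 FPKM with lenvatinib and 5.09, 4.11 and 5.02 FPKM with DMSO. It rests on 80 to 185 reads per library, the fewest of the tested members. Over the 8 genes of the group, 0 passed, against 2.03% of all genes, and the median log2 fold change was −0.35. Without overlap, 2 were lower (25.0%, against 17.5% of all genes) and 1 higher (12.5%, against 10.0%).

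**Figure D3:**
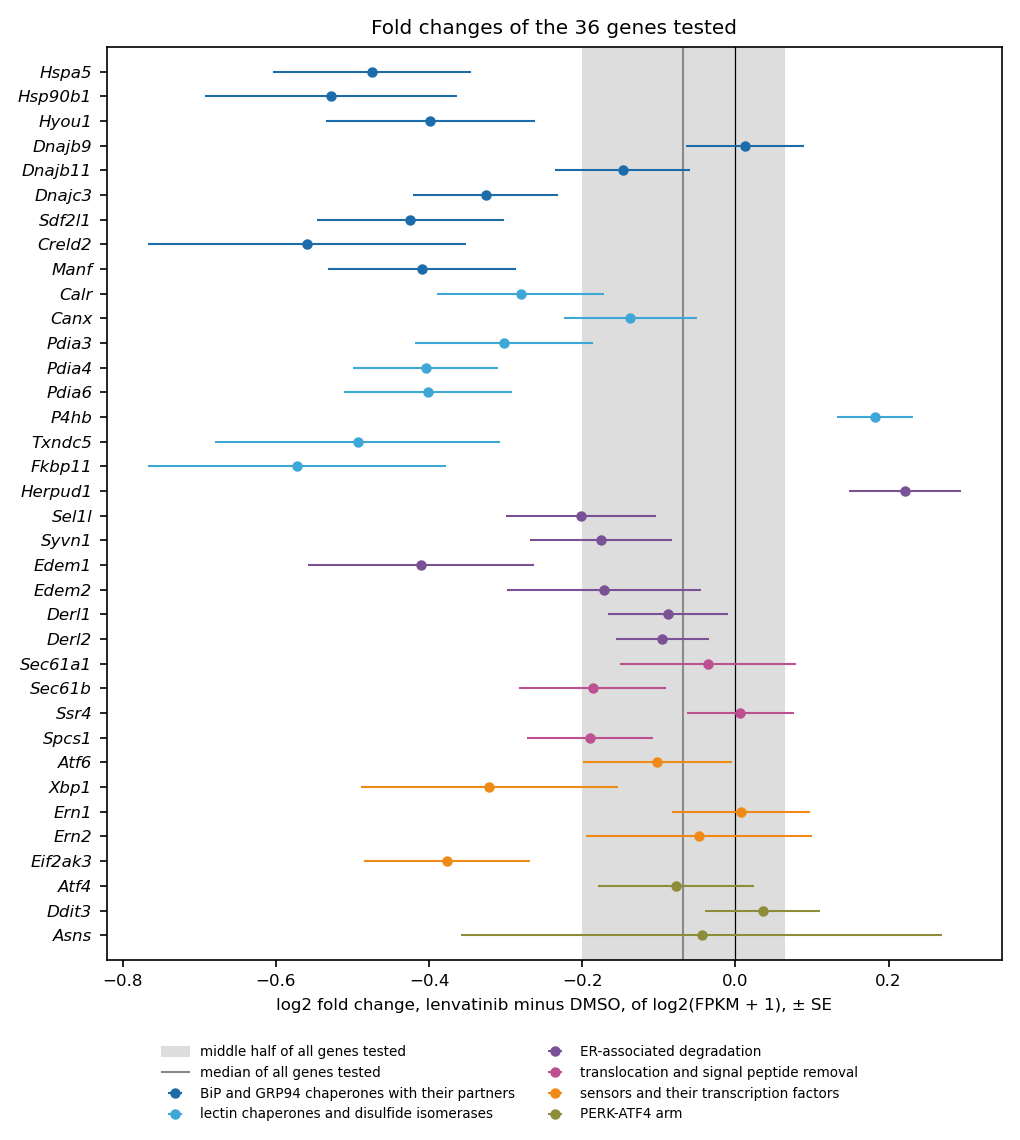
Log2 fold change, lenvatinib minus DMSO, of the 36 tested genes on the log2(FPKM + 1) scale (points, coloured by role) with SE (bars), beside the median and the middle 50% of the 11774 genes tested (line and grey band, −0.20 to 0.06). Most genes of the 2 folding groups lie left of the band, P4hb and Herpud1 lie right of it, and the PERK-ATF4 genes lie inside it, though 0 of 36 passed the test.

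ATF6 and XBP1 bind short promoter elements, and the stretches that hold them are shown because the folding genes, their best known targets, had the most negative medians of the set. Promoters of 250 bases before to 50 after the annotated start came from RefSeq (build GRCm38.p6), with an entry for 32 of the 38 members; Hyou1, Manf, Derl1, Sec61a1, Atf6 and Ern2 had none. They were searched on both strands for the ER stress element ERSE (CCAAT and CCACG with 9 bases of any kind between them), for ERSE-II (ATTGG and CCACG with 1 base of any kind between them), for the unfolded protein response element UPRE (TGACGTGG) and for the C/EBP-ATF element CARE (TGATGNAA) that ATF4 binds. Some of these share the letters CCACG, so a stretch can match more than 1 motif, but none of the 17 matches in member promoters overlapped another. Capitals mark the fixed letters of each motif, on whichever strand they lie, and each stretch runs 5′ to 3′ along the gene.

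The members were picked as genes of this response, so the shares of members holding a motif are descriptive and test nothing. Shares of members are per gene, and those of all promoters per promoter. ERSE matched in 8 of the 32 member genes (25.0%), against 39 of all 32851 promoters (0.119%). They were Hspa5 (chr2:34771995-34772073, plus strand), Hsp90b1 (chr10:86705503-86705686, minus strand), Calr (chr8:84847045-84847123, minus strand), Canx (chr11:50325770-50325848, minus strand), Pdia6 (chr12:17266461-17266539, plus strand), Creld2 (chr15:88819490-88819568, plus strand), Dnajc3 (chr14:118937797-118937875, plus strand) and Syvn1 (chr19:6046502-6046575, plus strand).
Hspa5: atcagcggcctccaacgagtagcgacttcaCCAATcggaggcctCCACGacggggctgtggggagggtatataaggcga
Hsp90b1: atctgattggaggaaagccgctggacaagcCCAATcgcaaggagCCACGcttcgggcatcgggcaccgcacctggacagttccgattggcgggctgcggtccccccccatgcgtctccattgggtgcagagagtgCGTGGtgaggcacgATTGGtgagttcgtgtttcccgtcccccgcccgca
Calr: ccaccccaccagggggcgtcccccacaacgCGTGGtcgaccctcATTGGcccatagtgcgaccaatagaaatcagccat
Canx: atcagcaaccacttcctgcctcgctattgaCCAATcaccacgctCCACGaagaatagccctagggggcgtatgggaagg
Pdia6: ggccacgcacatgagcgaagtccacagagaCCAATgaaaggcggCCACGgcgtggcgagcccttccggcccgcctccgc
Creld2: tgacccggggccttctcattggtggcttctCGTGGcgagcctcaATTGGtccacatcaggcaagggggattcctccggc
Dnajc3: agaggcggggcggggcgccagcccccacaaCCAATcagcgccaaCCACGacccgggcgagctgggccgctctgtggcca
Syvn1: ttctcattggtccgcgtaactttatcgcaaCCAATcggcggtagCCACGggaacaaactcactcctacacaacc

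In Hspa5 the match spans bases −65 to −47 from the start, and Hsp90b1 has 2 matches, on opposite strands. All 8 genes had negative log2 fold changes, with a median of −0.36. Over all members 83.3% were negative, and over all genes tested 63.9%. Folding genes with and without a match had similar medians, a difference that was not tested. The 7 folding genes with ERSE had a median of −0.40 (−0.56 to −0.14), and the 8 folding genes with a promoter entry but no ERSE had a median of −0.35 (−0.57 to 0.18). Pdia4, Pdia3 and Sdf2l1 are among the 8 without ERSE. Another 9 tested genes outside the set carry ERSE, of which 1 passed, Acacb, a higher gene of fatty acid metabolism. The median of the 9 was −0.24, and 6 had negative fold changes, against 63.9% of all genes.

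The other elements matched fewer members. ERSE-II matched in Herpud1 (chr8:94386287-94386417, plus strand) and Dnajb11 (chr16:22857837-22857862, plus strand), against 0.0365% of all promoters. UPRE matched at 1 start of Txndc5 (chr13:38528015-38528082, minus strand), against 0.676%. CARE matched in Asns (chr6:7693210-7693262, minus strand), Chac1 (chr2:119351019-119351086, plus strand), Trib3, Herpud1 and another start of Txndc5, against 3.97%. Herpud1 thus holds an ERSE-II and a CARE match, and its level lay opposite to that of Dnajb11. The stretches are shown for their ERSE-II, UPRE and CARE letters, the UPRE start being the one given for Txndc5.
Herpud1: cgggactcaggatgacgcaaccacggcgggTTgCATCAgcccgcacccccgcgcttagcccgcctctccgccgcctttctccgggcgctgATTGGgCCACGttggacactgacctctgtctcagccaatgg
Dnajb11: atgtccccggcggcgATTGGcCCACG
Txndc5: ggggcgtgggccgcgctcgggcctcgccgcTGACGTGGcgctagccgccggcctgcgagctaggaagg
Asns: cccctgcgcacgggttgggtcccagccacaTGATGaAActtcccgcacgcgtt
Chac1: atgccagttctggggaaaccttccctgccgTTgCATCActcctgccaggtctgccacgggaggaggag

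**Figure D4:**
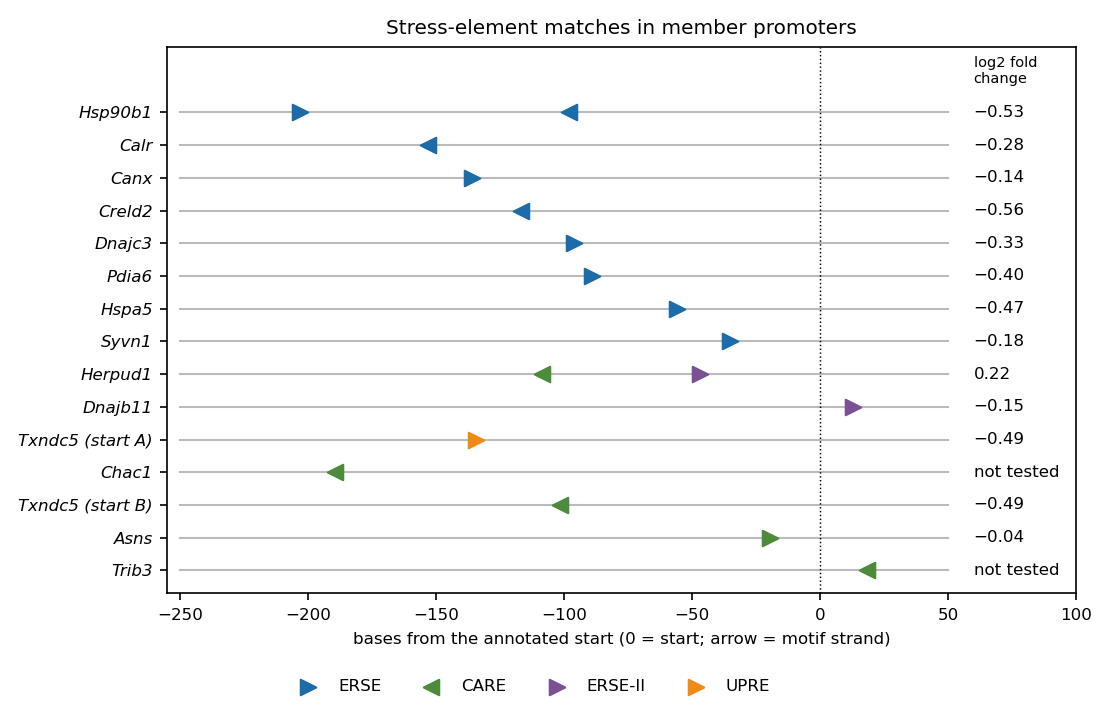
Positions of motif matches in member promoters, in bases from the annotated start, with the arrow giving the strand of the motif and the numbers at the right the log2 fold change, lenvatinib minus DMSO. ERSE matches (blue) lie between −212 and −26 bases in 8 genes. Their fold changes are all negative, as are 63.9% of those of all genes tested. Herpud1, with ERSE-II and CARE, has a fold change of 0.22.

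The ERAD genes differed among themselves. Herpud1, a scaffold of the HRD1 ubiquitin ligase complex at the ER membrane, measured 58.8, 63.3 and 65.5 FPKM in lenvatinib 1 to 3 and 57.6, 51.5 and 51.5 FPKM in DMSO 1 to 3. The groups did not overlap, although lenvatinib 1 and DMSO 1 nearly touched (log2 fold change 0.22, SE 0.0736, limma adjusted p = 0.172). Edem1, which helps trim mannose from misfolded glycoproteins, measured 31.7, 23.4 and 23.7 FPKM with lenvatinib and 40.7, 32.8 and 31.9 FPKM with DMSO. Here the gap between lenvatinib 1 and DMSO 3 was small too, and the log2 fold change was −0.41 (SE 0.148, limma adjusted p = 0.192).

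The ligase subunits and channels of ERAD varied less. Sel1l, the adaptor of the HRD1 ligase, averaged 19.9 ± 2.09 FPKM with lenvatinib and 23.0 ± 1.99 FPKM with DMSO. Syvn1, which encodes HRD1 itself, averaged 16.4 ± 1.47 and 18.6 ± 1.67 FPKM, Edem2 28.2 ± 3.80 and 31.9 ± 4.14 FPKM, and Derl1, a derlin of the export channel, 35.7 ± 3.29 and 37.9 ± 1.19 FPKM in lenvatinib and DMSO libraries. Derl2 was lower without overlap, but its means differed little, at 11.9 ± 0.603 FPKM with lenvatinib and 12.8 ± 0.119 FPKM with DMSO. Over the 7 genes 0 passed, against 2.03% of all genes, and the median log2 fold change was −0.17. It was −0.09 without DMSO 1, −0.10 without lenvatinib 3 and −0.08 with upper quartile scaling.

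The genes for entry into the ER lay close to the background of all genes. Sec61a1, the pore of the channel, measured 117, 93.5 and 89.2 FPKM with lenvatinib and 110, 97.2 and 98.1 FPKM with DMSO, so that its highest and lowest libraries were both lenvatinib. Sec61b, a small channel subunit, averaged 176 ± 20.8 FPKM with lenvatinib and 199 ± 8.96 FPKM with DMSO. Ssr4, a subunit of the translocon-associated complex, averaged 132 ± 4.20 and 131 ± 9.25 FPKM in the same order. Spcs1, of the signal peptidase, was lower without overlap, at 122, 105 and 102 FPKM with lenvatinib and 124, 128 and 123 FPKM with DMSO (log2 fold change −0.19, limma adjusted p = 0.241). The median of the 4 genes was −0.11, and it was −0.07 without DMSO 1, −0.21 without lenvatinib 1, −0.05 without lenvatinib 3 and −0.02 with upper quartile scaling.

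Of the 5 sensors and their factors, 0 passed, against 2.03% of all genes. Lower without overlap was 1 of the 5, the gene for PERK, against 17.5% of all genes. Eif2ak3, which encodes PERK, measured 8.47, 7.02 and 6.91 FPKM with lenvatinib and 11.2, 9.60 and 9.12 FPKM with DMSO (log2 fold change −0.38, SE 0.108, limma adjusted p = 0.135). Xbp1 measured 122, 88.8 and 88.3 FPKM with lenvatinib and 147, 110 and 116 FPKM with DMSO, so lenvatinib 1 was inside the DMSO range and DMSO 1 above all others. Gene-level values do not separate the spliced from the unspliced form of Xbp1. Its log2 fold change was −0.32 (SE 0.168, limma adjusted p = 0.295).

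The other sensors had nearly equal means. Ern1, for the widely expressed IRE1α, averaged 7.36 ± 0.511 FPKM with lenvatinib and 7.33 ± 0.771 FPKM with DMSO, and Atf6 8.34 ± 0.749 and 9.03 ± 0.937 FPKM in the same order. Ern2, for IRE1β of mucus-secreting epithelium, measured 10.4, 10.7 and 10.5 FPKM with lenvatinib and 14.1, 9.77 and 9.38 FPKM with DMSO. Its log2 fold change was −0.05, and 0.12 when DMSO 1 was left out. The median of the 5 genes was −0.10. It was −0.03 without DMSO 1, −0.16 without DMSO 2, −0.16 without lenvatinib 1, −0.06 without lenvatinib 2, and −0.02 with upper quartile scaling and with quantile normalization. All 5 were highest in DMSO 1, and 18 of the 36 tested members were (50.0%), against 18.1% of all genes.

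In the PERK-ATF4 arm 0 of 3 tested genes passed, against 2.03% of all genes. The groups overlapped for each, where 27.5% of all genes had groups without overlap. Atf4 measured 82.5, 71.3 and 66.9 FPKM with lenvatinib and 85.4, 73.5 and 74.0 FPKM with DMSO. Ddit3, for CHOP, the factor linked to cell death in prolonged stress, averaged 3.20 ± 0.148 FPKM with lenvatinib and 3.10 ± 0.220 FPKM with DMSO, on 289 to 337 reads per library. Asns, for asparagine synthetase, spread most, at 10.8, 4.40 and 4.69 FPKM with lenvatinib and 7.66, 5.47 and 6.11 FPKM with DMSO. Lenvatinib 1 was thus highest and lenvatinib 2 and 3 lowest, and the log2 fold change was −0.04 (SE 0.314, limma adjusted p = 0.941).

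The remaining 2 genes of this arm were below the 1 FPKM mean and were not tested. Trib3, for a pseudokinase induced by ATF4 and CHOP, measured 0.649, 0.250 and 0.453 FPKM with lenvatinib and 0.205, 0.295 and 0.225 FPKM with DMSO, on 16 to 51 reads. Chac1, for an enzyme that breaks down glutathione, measured 0.965, 0.489 and 0.197 FPKM with lenvatinib and 1.12, 0.933 and 0.704 FPKM with DMSO, on 12 to 67 reads. Both had overlapping groups at this low depth. The median log2 fold change of the 3 tested genes, Atf4, Ddit3 and Asns, was −0.04. Its sign depended on the setting, at 0.03 with upper quartile scaling and 0.03 without DMSO 1, and it moved by over 1.5 times whichever library was left out, over a range of −0.16 to 0.06.

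Set side by side, the arms had lenvatinib 2 and 3 lowest and differed in size. Relative to the DMSO mean, the median log2 level of the BiP and GRP94 group was −0.13, −0.55 and −0.54 in lenvatinib 1 to 3, and that of the lectin and isomerase group −0.10, −0.45 and −0.47. For ERAD the values were −0.04, −0.19 and −0.29, and for the PERK-ATF4 genes 0.09, −0.12 and −0.21. For translocation they were 0.03, −0.17 and −0.24, and for the sensors −0.01, −0.21 and −0.11. Over all genes tested the same medians were 0.01, −0.10 and −0.10. The DMSO libraries ran from −0.03 to 0.03 in the BiP and GRP94 group and from −0.02 to 0.03 in the lectin group. Their range was −0.08 to 0.13 for ERAD, −0.06 to 0.08 for translocation, −0.11 to 0.16 for the sensors and −0.07 to 0.14 for PERK-ATF4. The folding groups stood furthest from all genes in lenvatinib 2 and 3, and the difference between arms was not tested.

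Members were called when lenvatinib 1 was left out and with array weights. Without lenvatinib 1, 23 of 36 members passed in limma, 21 of them lower (58.3%, against 28.2% of all genes) and 2 higher (5.56%, against 9.85%). In that version 29 members lay lower without overlap, against the 46.6% of all genes given above, and 33 had negative fold changes, against 66.2%. These calls set 2 near-identical lenvatinib libraries against DMSO. With array weights, which give each library a weight from its fit, 28 members passed (64.4% of all genes), 26 of them lower (72.2%, against 45.3%) and 2 higher (against 19.1%). With libraries 2 and 3 of each group averaged, 0 members passed, against 0.0340% of all genes, 15 members were lower without overlap, against 21.7%, and 32 had negative fold changes, against 61.4%.

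Other genes of the same machinery were read from lists beside the members. Of 25 tested genes for further ER folding and glycan processing 0 passed, with a median log2 fold change of −0.16. Ero1b, an oxidase that recharges the isomerases, measured 3.26, 2.14 and 1.80 FPKM with lenvatinib and 4.33, 4.47 and 4.02 FPKM with DMSO (limma adjusted p = 0.107), and Dnajc10, an ER reductase, averaged 18.5 ± 2.93 and 25.3 ± 2.53 FPKM in the same order. Selenom, an ER selenoprotein, was opposite, at 147 ± 14.1 FPKM with lenvatinib and 113 ± 11.6 FPKM with DMSO (limma adjusted p = 0.135).

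Further ERAD genes (0 of 20 passed, median −0.09) and genes of the translocon, signal recognition and N-glycosylation (0 of 26 passed, median −0.14) gave no call either. Lenvatinib 2 and 3 lay below every DMSO library for 23 of these 26 translocon-list genes (88.5%), against 46.6% of all genes. The share was 50.0% in the further ERAD list and 88.2% among the 17 folding members. In ERAD the lowest p-values were those of Edem3, Ube2j1 and Ubxn4, with log2 fold changes of −0.23, −0.27 and −0.20. In the translocon list they were those of Dad1, Sec11c and Srp19, at −0.17, −0.38 and −0.26. Of 26 tested ATF4 targets and amino acid response genes 0 passed, with a median of −0.12, and Aars, Nupr1 and Pycr1 had the lowest p-values, with log2 fold changes of −0.31, −0.35 and −0.50.

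Only 2 of the 136 tested genes of these lists passed, a share below the 2.03% of all genes. Both fell in all 3 lenvatinib libraries. Kdelr3, a receptor that returns KDEL-bearing ER chaperones from the Golgi, fell to 5.28, 5.41 and 5.17 FPKM in lenvatinib 1 to 3, against 13.3, 10.7 and 11.6 FPKM in DMSO 1 to 3 (log2 fold change −1.03, SE 0.0872, limma adjusted p = 0.00509). Lenvatinib 1 did not stand apart for this gene, unlike for the chaperones. It was the 1 call among 22 genes of ER to Golgi transport (median −0.07), where Sar1a and Lman1 did not pass (adjusted p = 0.117 and 0.189 in limma). The call was lost with libraries 2 and 3 averaged (limma adjusted p = 0.196) and under the replicate block (0.0663), and over all 19 alternatives the adjusted p ran from 1.32e-05 to 0.196.

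Creb3l1, an ER-anchored transcription factor related to ATF6 and used in secretory and matrix-making cells, fell to 21.0, 23.6 and 23.5 FPKM with lenvatinib, against 36.5, 35.9 and 37.8 FPKM with DMSO (log2 fold change −0.67, SE 0.0671, limma adjusted p = 0.00826). In 6 of 19 alternatives Creb3l1 did not pass, and leaving out DMSO 2 (limma adjusted p = 0.0625), DMSO 3 (0.0712) or lenvatinib 3 (0.0537) was enough. The adjusted p ran from 1.66e-05 to 0.334. It was the 1 call among 17 genes of other stress kinases and ER-anchored factors (median −0.01). In that list Creb3l3 averaged 6.28 ± 0.697 FPKM with lenvatinib and 3.34 ± 0.799 FPKM with DMSO (limma adjusted p = 0.0640), and Atf6b 21.0 ± 2.79 and 24.9 ± 1.62 FPKM.

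Secretory cells carry much of the ER, so their marker levels are given beside the members. In bulk tissue, fewer cells of a type and less RNA per cell cannot be told apart. The summed level of the 17 folding members was 2319, 1847 and 1849 FPKM in lenvatinib 1 to 3 and 2372, 2482 and 2439 FPKM in DMSO 1 to 3. The summed level of 13 goblet cell markers was 3398, 4691 and 4678 FPKM in lenvatinib 1 to 3 and 12108.5, 5505 and 5675 FPKM in DMSO 1 to 3. It was lowest in lenvatinib 1 and highest in DMSO 1.

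For 9 plasma cell markers the sum was 501, 251 and 245 FPKM in lenvatinib 1 to 3 and 1778, 530 and 529 FPKM in DMSO 1 to 3. Jchain made up most of each sum, at 357, 159 and 153 FPKM with lenvatinib and 1595, 382 and 381 FPKM with DMSO. Lenvatinib 2 and 3 lay below every DMSO library for 7 of the 9 (77.8%, against 46.6% of all genes). The exceptions were Prdm1 and Sdc1, and Sdc1 was lowest in lenvatinib 1. The plasma cell and folding sums were both lowest in lenvatinib 2 and 3. In DMSO 1 the plasma cell sum was the highest of all libraries, and the folding sum the lowest of the DMSO libraries. Of the plasma cell markers 0 of 9 passed, and of the goblet markers 1 of 13, Agr2, itself a member of the disulfide isomerase family, which fell to 281 ± 8.32 FPKM with lenvatinib, against 569 ± 93.6 FPKM with DMSO. The part of goblet and plasma cells in the members' levels was not tested.

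Markers of B cells, macrophages and fibroblasts also had their lowest sums in lenvatinib 2 and 3, with lenvatinib 1 nearest to DMSO, as the folding members did. B cell markers summed to 41.7, 7.93 and 9.50 FPKM in lenvatinib 1 to 3 and 83.5, 68.7 and 73.3 FPKM in DMSO 1 to 3 (0 of 6 tested passed), with Cr2, Fcer2a and Pax5 below a mean of 1 FPKM. Macrophage markers summed to 196, 143 and 142 FPKM with lenvatinib and 341, 370 and 386 FPKM with DMSO, with 8 of 8 falling. Fibroblast markers summed to 452, 392 and 385 FPKM with lenvatinib and 662, 613 and 612 FPKM with DMSO, with 5 of 8 falling. Most of the fibroblast gap between lenvatinib 1 and lenvatinib 2 and 3 lay in Dcn. Dcn measured 154, 96.8 and 99.8 FPKM in lenvatinib 1 to 3 and 119, 99.3 and 99.5 FPKM in DMSO 1 to 3. Among the lenvatinib libraries, Col1a1, Col3a1, Lum and Dpt were highest in lenvatinib 2, and the other fibroblast markers in lenvatinib 1. For these 3 lists the lenvatinib 1 sum was also below all DMSO sums. Other lists had other orders. Paneth cell markers summed to 181 to 276 FPKM with lenvatinib and 60.2 to 1691 FPKM with DMSO, with 6 of 8 rising. The high DMSO sum was that of DMSO 1. Ang4 made up most of the DMSO sums, at 1672, 51.2 and 55.3 FPKM in DMSO 1 to 3. With lenvatinib Ang4 measured 6.69, 13.9 and 14.3 FPKM. The other 7 Paneth markers were higher in every lenvatinib library than in any DMSO library. Small intestinal markers summed to 546 to 783 FPKM with lenvatinib and 458 to 601 FPKM with DMSO (4 of 8 rose), and smooth muscle markers to 1524 to 1842 FPKM with lenvatinib and 1454 to 1589 FPKM with DMSO (0 of 8 passed). Enteroendocrine markers summed to 142 to 154 FPKM with lenvatinib and 144 to 154 FPKM with DMSO (0 of 6 tested passed). Of the 6 markers of exocrine pancreas in the table, an ER-rich tissue, 5 had a mean below 1 FPKM and 2 were at 0 in every library. The part of these cell types in the members' levels was not tested.

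**Figure D5:**
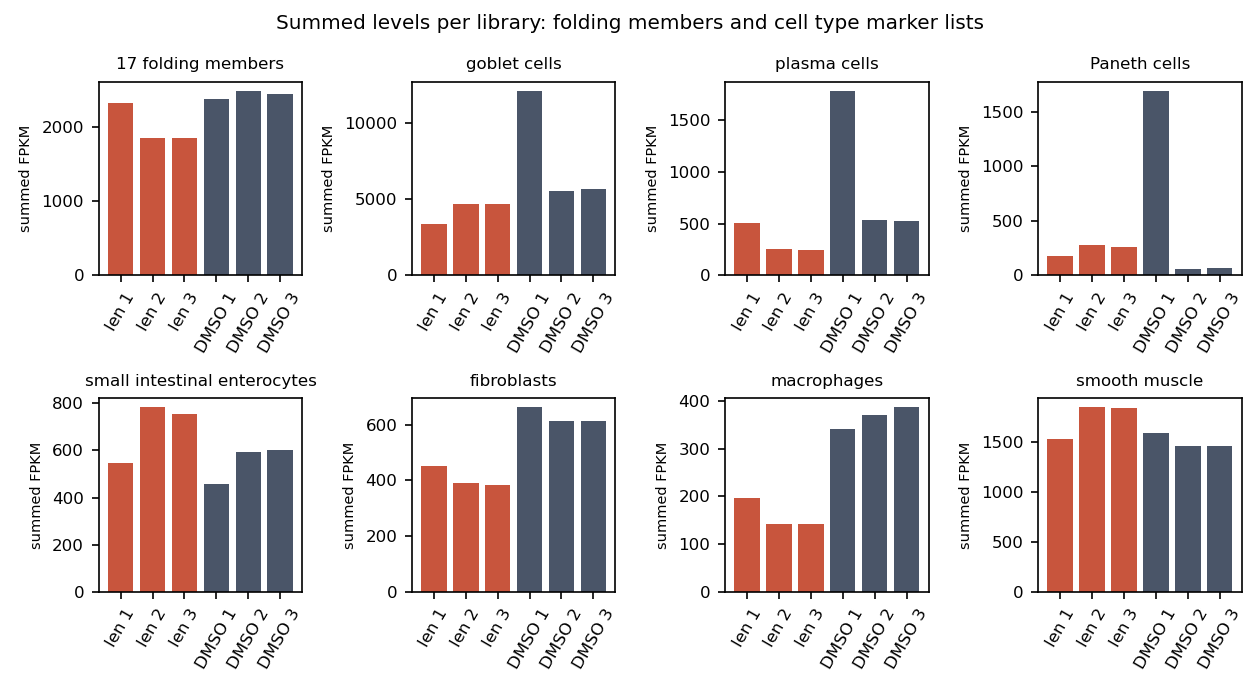
Summed FPKM per library (bars from 0) of the 17 folding members and of 7 cell type marker lists, with lenvatinib libraries in red and DMSO libraries in grey. The folding sum is lowest in lenvatinib 2 and 3 (1847 and 1849 FPKM), the goblet and plasma cell sums are highest in DMSO 1, and fibroblast and macrophage sums are lower in all 3 lenvatinib libraries.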

How the data were processed

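Per the labels' protocols, TRIzol was used for total RNA, and the VAHTS Universal V10 kit for libraries. The deposited values are FPKM computed by the authors for 25339 genes, and the submitters' processing notes name HTSeq and GRCm39. The sources used here do not give the aligner, annotation, strand setting or filters, so reads shared with overlapping or similar genes may be split. Whole reads were recovered from the FPKM steps for 23951 of 23951 genes above 0, within 0.01 reads. Counting error is small for abundant members and larger for Trib3, Chac1, Fkbp11 and Ddit3.

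Genes that averaged 1 FPKM or more were tested on log2(FPKM + 1), with limma 3.58.1 in R 4.3.3 (trended, robust prior, two-sided, Benjamini-Hochberg over 11774 genes, threshold 0.05). The test was also run on simulated reads, drawn for independent libraries of equal spread. Near-identical pairs of libraries were not simulated, so that run gives no error rate for this design. Levels are mean ± SD (n = 3). The members and lists were chosen with earlier results of these data known. Named genes are all members, and of each further list every called gene and the 3 with the lowest p. Acacb, Agr2, Ang4, Fabp6, Ddx3y, Jchain, Sdc1, Prdm1 and the named fibroblast markers were chosen after their values were seen. Alternatives covered pseudocount, filter, scaling, variance model, weights, voom, replicate block, near-identical libraries and leaving out each library. Promoters came from RefSeq (GRCm38.p6), a build other than that of the counts. No protein sequences were used here.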

Additional observations from a re-analysis of the deposited data

How the results depend on the processing

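The count of members called was 0 higher and 0 lower in 17 of 19 alternatives. It was 2 higher and 26 lower with array weights, and over the 6 versions that leave out a library it ran from 0 to 2 higher and from 0 to 21 lower, where only the one without lenvatinib 1 gave calls. Over all genes, 239 passed, against 140 with no filter on low values, 7582 with array weights, 29 with the replicate block, 4 with libraries 2 and 3 averaged, 46 with these as a random block and 45 to 4479 when a library was left out. The higher share of calls went from 54.0% to 29.7% with array weights (2252 higher, 5330 lower) and 25.9% without lenvatinib 1 (1160 higher, 3319 lower). In alternatives chosen after seeing the data, the 12 members lower without overlap became 16 without DMSO 1 and 29 without lenvatinib 1. The share of all genes rose as well, from 17.5% to 31.0% without DMSO 1 and 46.6% without lenvatinib 1. Over 6 such settings 25 to 33 members had negative fold changes, against 30. The arm medians moved by less than the spread between libraries in all alternatives, but those of ERAD, translocation, sensors and PERK-ATF4 moved by over 1.5 times when single libraries were left out.

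Whether replicate numbers pair the libraries could not be decided from their correlations. Same-numbered libraries deviated from their group means with correlations of −0.20, −0.16 and −0.15, and 0 of 3 lenvatinib libraries correlated best with their own number. Each group holds a near-identical pair of libraries, so these correlations are not independent and can neither show nor exclude pairing. The replicate block changed no member's call.

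Signs turned only for members with fold changes near 0. With TPM the log2 fold change was −2e-04 for Dnajb9, −0.0070 for Ssr4 and −0.0046 for Ern1, and with TPM less immunoglobulin and haemoglobin genes −1e-04, −0.0069 and −0.0045. With upper quartile scaling it was 2e-04 for Derl1, 0.054 for Sec61a1, 0.036 for Ern2, 0.011 for Atf4 and 0.030 for Asns. With quantile normalization it was −0.021 for Ssr4, 0.031 for Ern2 and 0.058 for Asns, and with array weights 0.11 for Ern2. With libraries 2 and 3 averaged it was −0.0061 for Dnajb9, −0.0097 for Ssr4, −0.0054 for Ern1 and 0.079 for Asns, and as a random block −0.0047, −0.0084, −0.0044 and 0.070. Over the versions that leave out a library it ran from −0.0229 to 0.0804 for Dnajb9, −0.1514 to 0.0397 for Sec61a1, −0.0258 to 0.0633 for Ssr4, −0.0424 to 0.0826 for Ern1, −0.1465 to 0.1247 for Ern2 and −0.4084 to 0.1565 for Asns. The cause was not tested. Trib3, Chac1, Fkbp11 and Ddit3 rest on the fewest reads, 12 to 337 per library.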
